A study of Mus musculus with 9 samples.

Results

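Integrin subunit genes, together with genes of other adhesion receptors and of focal adhesions, were followed in mouse bone marrow cells lacking the adaptor gene Abi1. The set holds every gene named as an integrin alpha or beta subunit in the array's annotation, plus named genes for selectin adhesion, immunoglobulin-type receptors, integrin activators and focal adhesion proteins. Of 41 names, 39 were measured on a probeset of their own, among 30142 genes in all: 17 alpha subunits, 8 beta subunits and 14 others. Itga1 lay only on a probeset shared with Pelo, and Ptk2 had no entry in the annotation used, so neither was analysed here. The genes were picked by name, with earlier results of these data known, and each had a single probeset.

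Integrins are surface receptors made of an alpha and a beta chain that bind matrix proteins or receptors on neighbouring cells. Talin and kindlin bind the tail of the beta chain and switch the receptor to its active form, and vinculin, paxillin, zyxin and the focal adhesion kinases then join it to actin. In marrow, α4β1 and related receptors hold stem and progenitor cells in their niche and take part in their homing.

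The cells were LSK cells, which lack the markers of mature lineages, carry Sca-1 and c-Kit, and include the haematopoietic stem cells. The 4 KO mice had the genotype Abi1(-/-) with the transgene Tg(Mx1-cre(+)), and the 5 WT mice had Abi1(fl/fl) with Tg(Mx1-cre(-)). Mice of both groups were given 3 injections of poly(I:C) at 8 to 9 weeks of age, and marrow was taken at 12 to 14 weeks. The Mx1 promoter that drives Cre answers to interferon in many cell types, and WT mice lacked Cre, so effects of Cre itself and of the deletion cannot be told apart. Each array was taken as 1 mouse and was made from 5 ng of RNA, and all signals below are log2 values as the authors deposited them.

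Abi1, the targeted gene, had signals of 6.11, 5.82, 5.59 and 5.76 in KO arrays, against 11.65, 11.49, 11.50, 11.56 and 11.53 in WT arrays. It was the single gene of 30142 (0.00332%) past an adjusted p of 0.05 in limma. All 10 measured stem and progenitor markers lay above background in all 9 arrays. Background was set, array by array, at the percentile 95 of 1717 odour and pheromone receptor genes (5.29 to 5.64). Only 2 of these 10 markers had the higher mean in KO. The median difference of the 10, KO minus WT, was -0.209, against 0.033 for all genes. In limma 1 of them, lower in KO, had an unadjusted p under 0.05, and 0 were called. Kit had 13.82 to 14.58 in KO arrays and 14.39 to 14.78 in WT arrays, and Ly6a, which encodes Sca-1, was not analysed here. Among markers of other cell types, the mean signal of 10 B cell markers did not overlap between groups. It was 5.72 to 5.82 in KO arrays and 5.39 to 5.64 in WT arrays. Of the 10, 3 lay above background in all arrays, and Pax5, Ms4a1 and Cd22 in none. The 10 include Vpreb1, Vpreb3 and Igll1, which are genes of early B cells. All 10 had the higher mean in KO, against 64.2% of all genes. Limma put 5 of these 10 at an unadjusted p under 0.05, against 5.01% of all genes, with 0 called. The mean was also higher for all 10 mast cell and basophil markers, with 3 under that p. It was higher for all 12 neutrophil markers (2 under that p) and all 9 megakaryocyte and platelet markers (1). So it was for all 8 stromal cell and osteoblast markers (0 under that p), 3 of them above background in all arrays. Other lists were less one-sided, with 7 of 9 erythroid and 7 of 10 dendritic cell markers higher. So were 8 of 12 monocyte and macrophage and 7 of 11 T and NK cell markers. The part of such cells in the results was not tested. KO replicate 1 and WT replicate 5 stood apart from the other arrays, with median correlations across genes of 0.973 and 0.979, against 0.987 to 0.992 for the other 7. For the genes described below in which these arrays were far from the rest, the difference is also given without 1 or both of them, and the plot of differences shows all 29 genes without both.

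Of the 39 genes, 29 (74.4%) lay above background in all 9 arrays, against 48.8% of all genes. They were 10 alpha subunits, 5 beta subunits and all 14 of the other genes. The alpha subunits were Itga2, Itga2b, Itga4, Itga5, Itga6, Itga9, Itgal, Itgam, Itgav and Itgax, and the beta subunits Itgb1, Itgb2, Itgb3, Itgb5 and Itgb7. The dim genes were Itga3, Itga7, Itga8, Itga11, Itgad, Itgae, Itgb4, Itgb6 and Itgb8, which lay above background in no array, at signals of 4.28 to 5.36. Itga10 had 5.39, 5.39, 5.40 and 5.39 in KO arrays, against 5.39 in every WT array, and passed the background of each array except KO replicate 1, where it was 5.64. The absence of a signal above background gives a bound only and does not show that a gene is silent.

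**Figure D1:**
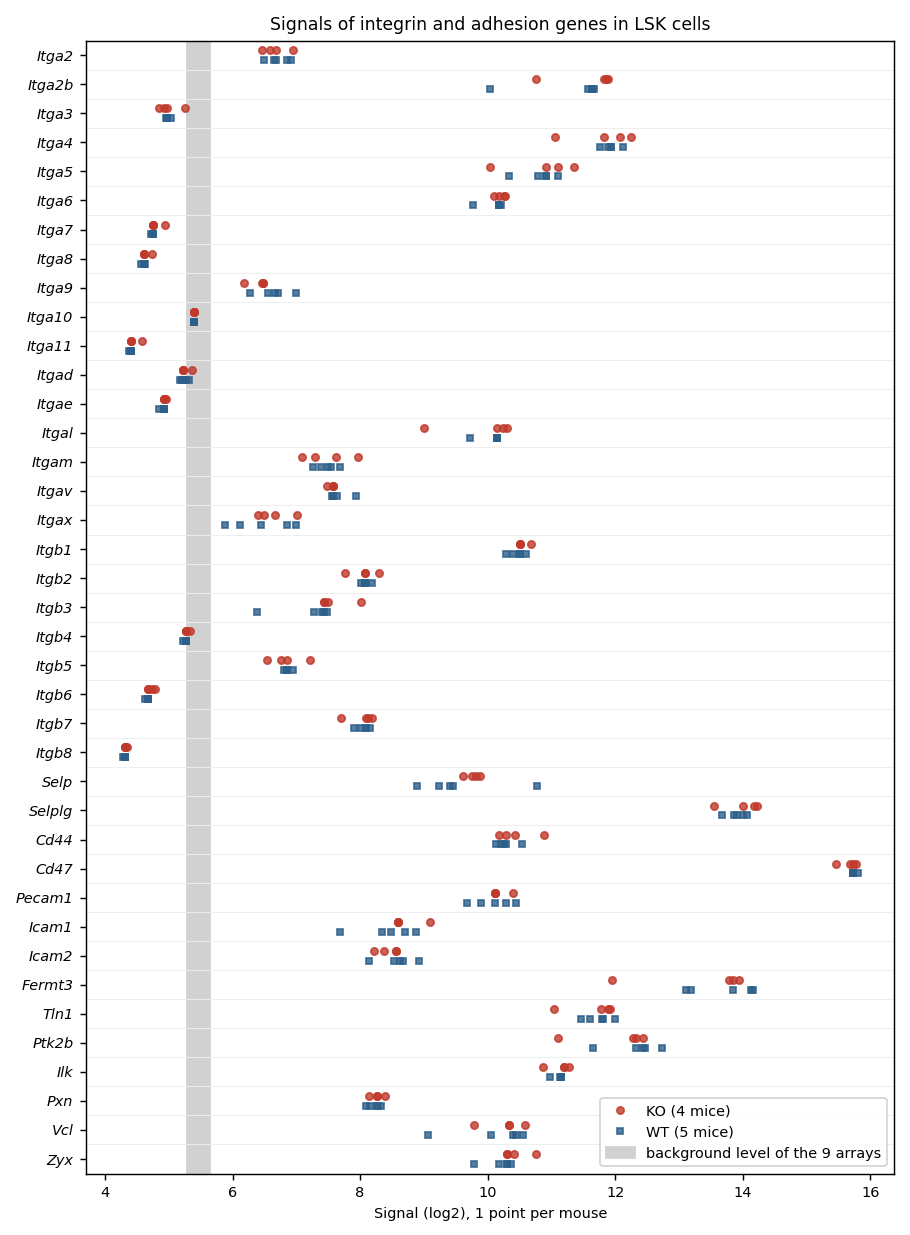
Log2 signal (horizontal axis) of the 39 genes, 1 row per gene, with KO mice as circles above WT mice as squares, and the background levels of the 9 arrays as a grey band. Itgb8, at 4.28 to 4.34, lies left of the band, and the KO and WT points of every gene overlap. Signals of different rows come from different probes and cannot be ranked against each other.

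Of 24 known alpha-beta pairs, 23 had both subunits measured, and 13 had both above background in every array of KO and of WT mice. With β1 these were α2β1, α4β1, α5β1, α6β1, α9β1 and αVβ1, which bind collagen, VCAM-1, fibronectin, laminin and RGD ligands. With the leukocyte chain β2 they were αLβ2 (LFA-1), αMβ2 (Mac-1) and αXβ2. The others were αIIbβ3, the fibrinogen receptor of megakaryocytes and platelets, αVβ3, αVβ5, and α4β7, which binds MAdCAM-1. A further pair, α10β1, was counted in WT alone, because of the background of KO replicate 1, and this difference was not tested. With a stricter background, the percentile 99, the counts were 13 pairs in KO and 12 in WT, where α10β1 and αXβ2 dropped out of the WT count. The arrays measured RNA of a sorted population, so they do not show that both chains were made by the same cell.

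**Figure D2:**
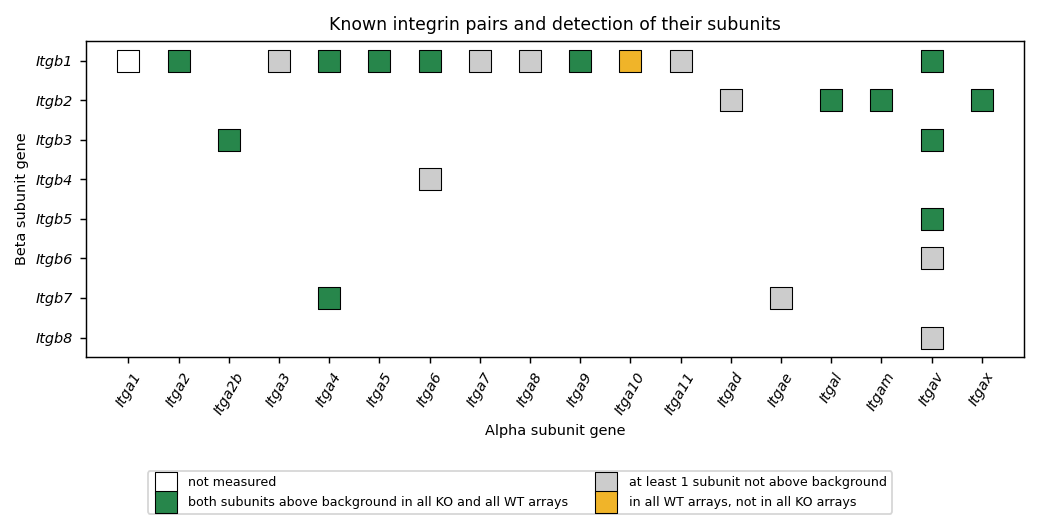
Known pairs of integrin alpha (horizontal) and beta (vertical) subunit genes. Green squares mark the 13 pairs with both subunits above background in all 4 KO and all 5 WT arrays, grey ones pairs with at least 1 dim subunit, the yellow square α10β1, and the white square α1β1, whose alpha gene was not measured.

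The promoters of 4 genes that carry the results below are shown, each from 250 bases before to 50 after the start of transcription, from RefSeq (GRCm38.p6). All 4 were at least 0.5 below the median of the other KO arrays in KO replicate 1, and Itga2b, Vcl and Fermt3 were so in WT replicate 5 among WT arrays. The windows are chr11:102469834-102470133 on the minus strand for Itga2b, chr14:20929148-20929447 on the plus strand for Vcl, chr19:7019420-7019719 on the minus strand for Fermt3 and chr2:79255176-79255475 on the plus strand for Itga4. Capitals mark matches on either strand to the motifs of 4 families of factors, which can overlap one another. For GATA factors the letters searched were AGATAA and, as the other common spelling of that motif, TGATAA. For ETS factors such as PU.1 they were GAGGAA. For RUNX factors the search used TGTGGT, and for SP factors, which bind GC-rich promoters, it used GGGCGG.
Itga2b: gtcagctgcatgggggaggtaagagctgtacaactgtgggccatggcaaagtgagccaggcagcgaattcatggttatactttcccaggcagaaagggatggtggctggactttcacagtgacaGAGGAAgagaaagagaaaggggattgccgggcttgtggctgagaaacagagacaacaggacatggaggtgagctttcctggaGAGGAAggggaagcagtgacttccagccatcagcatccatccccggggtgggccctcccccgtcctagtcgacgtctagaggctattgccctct
Vcl: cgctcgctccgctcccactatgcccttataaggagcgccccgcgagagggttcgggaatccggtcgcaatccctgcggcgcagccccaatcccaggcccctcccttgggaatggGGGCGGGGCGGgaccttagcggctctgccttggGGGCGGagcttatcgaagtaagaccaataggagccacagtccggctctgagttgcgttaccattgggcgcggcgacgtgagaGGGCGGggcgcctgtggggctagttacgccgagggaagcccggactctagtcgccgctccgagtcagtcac
Fermt3: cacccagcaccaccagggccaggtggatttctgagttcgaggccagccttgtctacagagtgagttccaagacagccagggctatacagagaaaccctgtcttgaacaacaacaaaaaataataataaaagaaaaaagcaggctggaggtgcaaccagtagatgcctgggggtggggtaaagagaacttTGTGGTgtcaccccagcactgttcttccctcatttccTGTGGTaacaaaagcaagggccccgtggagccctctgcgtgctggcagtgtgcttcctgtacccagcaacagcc
Itga4: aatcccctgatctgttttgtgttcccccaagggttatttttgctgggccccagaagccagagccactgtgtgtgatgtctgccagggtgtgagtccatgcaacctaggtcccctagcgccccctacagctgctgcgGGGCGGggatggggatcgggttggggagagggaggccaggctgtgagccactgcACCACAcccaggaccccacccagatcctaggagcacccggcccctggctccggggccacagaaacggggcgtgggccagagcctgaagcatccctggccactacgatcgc
The Itga2b window held 2 ETS matches, the Vcl window 4 SP matches, some of them overlapping, the Fermt3 window 2 RUNX matches, and the Itga4 window 1 RUNX and 1 SP match. None of these 4 windows held the GATA letters, which says only that these letters are not in these bases. Of all 32851 promoter windows, 18.6% held the GATA letters, 28.3% the ETS, 16.8% the RUNX and 35.7% the SP letters. Among the 26 measured genes with a window, 2 held GATA, 11 ETS, 5 RUNX and 14 SP letters in any of their windows. These counts are per gene and the percentages per window, so they are not directly comparable. A match is a description of the sequence and not evidence of binding.

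No gene of the set changed past the threshold between KO and WT cells. In limma 0 of 39 passed an adjusted p of 0.05, and the lowest adjusted value was 0.786. An unadjusted p under 0.05 was reached by 0 of 39, against 5.01% of all genes. The groups overlapped in every gene of the set, whereas 0.856% of all genes had groups that did not. The median difference, KO minus WT, was 0.024 over the set and 0.033 over all genes. Of the 29 genes above background, 16 (55.2%) had the higher mean in KO and 13 the lower, against 53.5% higher over all genes above background. With the dim genes included 26 of 39 had the higher mean in KO, against 64.2% of all genes. The interval of the difference at the 95% level lay within 0.5 (1.41-fold) on either side of 0 for 14 of the 29 and within 1 (2-fold) for 27. It ran beyond 1 for Fermt3 and Itga2b. The median standard error was 0.15, against 0.125 for all genes above background. Without KO replicate 1 and WT replicate 5 it was 0.121 for the set, and 18 of the 29 intervals lay within 0.5.

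The β1 chain, the common partner of the matrix-binding integrins, gave one of the closest comparisons. Itgb1 had 10.51, 10.51, 10.68 and 10.51 in KO arrays, against 10.60, 10.51, 10.51, 10.39 and 10.29 in WT arrays. The groups shared the value 10.51, and the difference was 0.092 (SE 0.071), with an interval from -0.069 to 0.25. Its partner Itga4, the alpha chain of the VCAM-1 receptors, had 11.06, 11.82, 12.24 and 12.07 in KO arrays, against 11.94, 12.12, 11.94, 11.89 and 11.76 in WT arrays. KO replicate 1 was the lowest of the 9 arrays, and the other KO arrays overlapped the WT arrays. The difference of Itga4 was -0.13, and 0.071 with an interval from -0.20 to 0.34 without KO replicate 1 and WT replicate 5.

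Itga5, the alpha chain of the fibronectin receptor, had 10.04, 11.36, 11.11 and 10.92 in KO arrays, against 10.92, 11.10, 10.79, 10.92 and 10.33 in WT arrays. In each group the array that stood apart was the lowest. KO cells averaged 10.86 ± 0.57 (SD, n = 4), against 10.81 ± 0.29 (SD, n = 5) for WT cells, and the interval of the difference ran from -0.57 to 0.66. That difference was 0.046, and 0.20 (interval -0.10 to 0.50) without KO replicate 1 and WT replicate 5. Itga6, a laminin-binding chain, had 10.10, 10.26, 10.27 and 10.18 in KO arrays, against 10.18, 10.18, 10.21, 10.18 and 9.77 in WT arrays, where WT replicate 5 was again the low array. Its difference of 0.098 had an interval from -0.12 to 0.32, and was 0.015 without WT replicate 5 and 0.049 without both arrays. Of the other partners of β1, the collagen-binding chain Itga2 differed by -0.05 and Itgav, which also pairs with β3 and β5, by -0.11, or by -0.038 without WT replicate 5.

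Itga9, a chain that binds VCAM-1, tenascin and osteopontin, had the smallest p of the alpha chains. It had 6.48, 6.47, 6.18 and 6.46 in KO arrays, against 6.66, 6.27, 6.56, 6.99 and 6.72 in WT arrays. KO arrays were lower than WT arrays apart from WT replicate 2, which lay among them. The difference of -0.24 had an interval from -0.56 to 0.070 and did not pass (limma adjusted p = 0.786, unadjusted p = 0.112).

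The leukocyte integrin chains likewise overlapped. Itgal, the alpha chain of LFA-1, had 9.00, 10.14, 10.24 and 10.30 in KO arrays, against 10.14, 10.14, 9.72, 10.14 and 10.14 in WT arrays. KO replicate 1 lay more than 1 log2 unit below the other KO arrays, and the difference was -0.14, or 0.19 (interval -0.11 to 0.49) without that array and WT replicate 5. Itgb2, the shared β2 chain, had 7.76, 8.07, 8.30 and 8.07 in KO arrays, against 8.01, 8.19, 8.07, 8.07 and 8.07 in WT arrays. The value 8.07 recurred in both groups, and the difference of -0.032 had an interval from -0.26 to 0.19.

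Itgam encodes the alpha chain of Mac-1, which marks myeloid cells. It had 7.30, 7.96, 7.09 and 7.62 in KO arrays, against 7.50, 7.26, 7.39, 7.68 and 7.54 in WT arrays. KO arrays held both the highest and the lowest value, and the difference was 0.018 (interval -0.37 to 0.41). The mean signal of 12 neutrophil markers, 2 of which lay above background in all arrays, ranged from 5.60 to 7.52 in KO arrays and from 5.26 to 6.24 in WT arrays. It was 7.52 in KO replicate 1 and 7.33 in KO replicate 2, the array with the highest Itgam, whereas Itgam in KO replicate 1 lay within the WT range. S100a8, which encodes a calprotectin chain of neutrophils, had 12.58, 10.87, 6.52 and 7.48 in KO arrays, against 5.31, 6.80, 8.83, 6.22 and 4.86 in WT arrays. Camp, S100a9 and Ngp were likewise highest in KO replicates 1 and 2. Cxcr2, which lay above background in all arrays, did not share this pattern. It was highest in KO replicate 4 (8.75), with 8.57 in KO replicate 1 and 8.63 in WT replicate 3. Mmp9 and Cd177, genes of mature neutrophils, lay above background in no array. The part of these cells in the Itgam signal was not tested. In bulk samples fewer cells of a type and less RNA per cell cannot be told apart.

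Itgax, the alpha chain of αXβ2 and a marker of dendritic cells, had 6.67, 7.01, 6.49 and 6.40 in KO arrays, against 5.88, 6.11, 6.45, 6.85 and 6.99 in WT arrays. The WT arrays spread over more than 1 log2 unit and enclosed all but the highest KO array. The difference was 0.19 (interval -0.38 to 0.75), with 0.042 without WT replicate 1 and 0.32 without WT replicate 5. The mean signal of 10 measured dendritic cell markers, 1 of them Itgax itself, ranged from 8.33 to 9.02 in KO arrays and from 8.13 to 8.78 in WT arrays, and 7 of the 10 lay above background in all arrays. Xcr1 lay above background in none, and the part of such cells in the Itgax signal was not tested. Itgb7, the partner of Itga4 in α4β7, differed by -0.031 (interval -0.27 to 0.20).

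Both chains of the platelet fibrinogen receptor had a low value in WT replicate 5. Itga2b, which encodes αIIb (CD41) and is also used in early haematopoietic cells, had 10.75, 11.89, 11.82 and 11.85 in KO arrays, against 11.64, 11.66, 11.58, 11.63 and 10.04 in WT arrays. One low array in each group, KO replicate 1 and WT replicate 5, made nearly all of the spread. The difference was 0.27 with an interval from -0.64 to 1.18 (limma adjusted p = 0.836). It was 0.54 without KO replicate 1 alone and -0.05 without WT replicate 5 alone. Without both it was 0.23 (SE 0.027, interval 0.16 to 0.29, n = 3 and 4), and the adjusted p in limma was 0.746. The arrays left out held the lowest Itga2b value of each group, so this SE and interval do not measure the spread between all mice. The remaining KO arrays then lay above all the remaining WT arrays. So did those of Ilk, and these 2 of 39 genes (5.13%) stand beside 2.8% of all genes whose remaining groups did not overlap.

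Itgb3, the β3 chain, had 7.50, 8.01, 7.43 and 7.43 in KO arrays, against 7.27, 7.40, 7.43, 7.48 and 6.39 in WT arrays. WT replicate 5 was lower and KO replicate 2 higher than the rest, which lay within a narrow band common to both groups. The difference of 0.40 (SE 0.24) was the largest of the 29 genes, with an interval from -0.15 to 0.95, and 0.20 without WT replicate 5 or 0.23 without both arrays that stood apart. The mean signal of 9 measured megakaryocyte and platelet markers, 8 of them above background in all arrays, ranged from 8.41 to 8.97 in KO arrays and from 6.58 to 8.83 in WT arrays. It was lowest, at 6.58, in WT replicate 5, the array with the lowest Itga2b and Itgb3. It was highest, at 8.97, in KO replicate 1, where Itga2b was low. The mean signal of 9 measured erythroid markers, 6 of them above background in all arrays, ranged from 8.68 to 9.85 in KO arrays and from 6.72 to 9.94 in WT arrays. It was lowest among KO arrays in replicate 1 and among WT arrays in replicate 5, the arrays with low Itga2b. The part of megakaryocytic or erythroid cells in either signal was not tested. Itgb5, which pairs with αV in the vitronectin receptor, differed by -0.02 (interval -0.29 to 0.25).

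**Figure D3:**
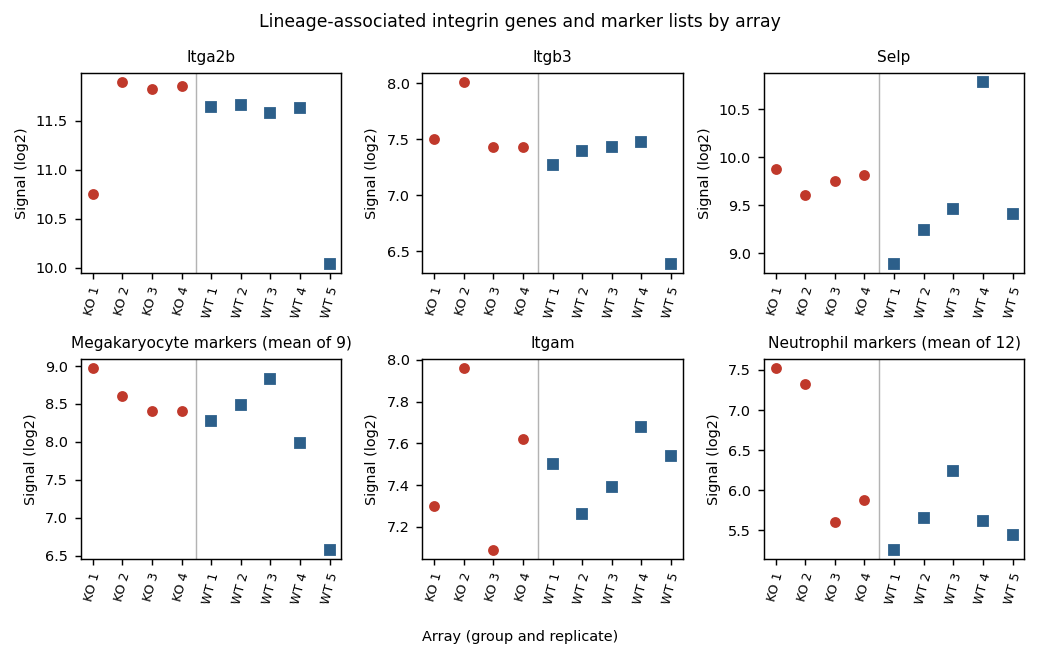
Log2 signal (vertical axes, each on its own scale and not starting at 0) by array for Itga2b, Itgb3, Selp and Itgam, and the mean log2 signal of 9 megakaryocyte and 12 neutrophil markers. KO arrays are circles on the left and WT arrays squares on the right. WT replicate 5 is lowest for Itga2b (10.04), Itgb3 (6.39) and the megakaryocyte markers (6.58), and KO replicates 1 and 2 are highest for the neutrophil markers (7.52 and 7.33).

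Among the selectin genes, Selp encodes P-selectin, the adhesion receptor of platelets and endothelium. It had 9.88, 9.61, 9.75 and 9.81 in KO arrays, against 8.89, 9.24, 9.46, 10.78 and 9.41 in WT arrays. The KO arrays lay close together, above all WT arrays but replicate 4, which was the highest of the 9. The difference was 0.21 (interval -0.57 to 0.98), with 0.040 without WT replicate 1. Without WT replicate 4 it was 0.51, at a limma adjusted p of 0.869. Selp did not share the low value of Itga2b and Itgb3 in WT replicate 5. Its ligand gene Selplg (PSGL-1) differed by 0.081, by 0.003 without KO replicate 2 and by 0.226 without KO replicate 1. Selplg had 13.55 in KO replicate 1 and 14.00 to 14.22 in the other KO arrays, against 13.68 to 14.07 in WT arrays.

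Cd44, the hyaluronan receptor, had 10.89, 10.43, 10.28 and 10.18 in KO arrays, against 10.28, 10.25, 10.13, 10.21 and 10.53 in WT arrays. In both groups the array that stood apart was the highest. The difference was 0.17, and it was 0.017 without KO replicate 1 and 0.079 without both arrays. Cd47, which signals to phagocytes through SIRPα and associates with integrins, varied least of the 29 genes between WT arrays, and averaged 15.66 ± 0.14 (SD, n = 4) in KO cells, against 15.74 ± 0.035 (SD, n = 5) for WT cells. Its interval ran from -0.22 to 0.067. The differences of Pecam1, an adhesion receptor of blood and endothelial cells, and of the integrin ligand Icam2 were 0.10 and -0.15. They rested in part on single arrays, since Pecam1 differed by 0.002 without WT replicate 1 and Icam2 by -0.065 without WT replicate 2. Leaving out some other arrays made them larger, with 0.192 for Pecam1 without WT replicate 5 and -0.26 for Icam2 without WT replicate 1. Of 9 measured endothelial markers 4 lay above background in all arrays, and Cdh5, Stab2 and Cldn5 in none. The mean signal of the 9 ranged from 6.47 to 6.55 in KO arrays and from 6.41 to 6.68 in WT arrays.

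Icam1, the main ligand of LFA-1 and an NF-kappaB target, had 8.60, 9.09, 8.60 and 8.60 in KO arrays, against 8.71, 8.34, 7.69, 8.49 and 8.87 in WT arrays. Most KO arrays lay within the WT range, KO replicate 2 lay above it, and WT replicate 3 was low. The difference was 0.30 (interval -0.23 to 0.84), and it was 0.12 without WT replicate 3, at a limma adjusted p of 0.785. It was 0.415 without WT replicate 5, and 0.456 without that array and KO replicate 1.

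The activators of integrins had lower means in KO, and KO replicate 1 set this direction. Fermt3, which encodes kindlin-3, the kindlin of blood cells, had 11.95, 13.79, 13.94 and 13.84 in KO arrays, against 14.16, 14.13, 13.11, 13.84 and 13.18 in WT arrays. KO replicate 1 lay nearly 2 log2 units below the other KO arrays, and WT replicates 3 and 5 lay below the other WT arrays. The difference was -0.30 with an interval from -1.34 to 0.73, and 0.17 without KO replicate 1. Tln1, the talin gene, had 11.04, 11.88, 11.91 and 11.78 in KO arrays, against 11.81, 11.99, 11.60, 11.79 and 11.46 in WT arrays. Its difference of -0.078 was 0.13 without KO replicate 1. The focal adhesion kinase Ptk2b (PYK2) followed the same array, with 11.11, 12.44, 12.32 and 12.28 in KO, against 12.44, 12.46, 11.65, 12.73 and 12.32 in WT. Its difference of -0.28 was 0.027 without KO replicate 1.

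The 4 adaptors that join integrins to actin, Vcl, Zyx, Ilk and Pxn, had the higher mean in KO, and none passed the test. Zyx, a protein of mature focal adhesions that binds VASP, had the smallest p of all 39 genes. It had 10.41, 10.76, 10.31 and 10.31 in KO arrays, against 10.31, 10.17, 9.79, 10.31 and 10.37 in WT arrays. The value 10.31 recurred in both groups, KO replicate 2 was high and WT replicate 3 low. The difference was 0.26 (SE 0.14, interval -0.065 to 0.58), with a limma adjusted p of 0.786 and an unadjusted p of 0.104. It was 0.15 without KO replicate 2 and 0.16 without WT replicate 3, but 0.315 without KO replicate 1 and WT replicate 5.

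Vcl, the vinculin gene, had 9.79, 10.33, 10.58 and 10.33 in KO arrays, against 10.40, 10.56, 10.45, 10.05 and 9.07 in WT arrays. WT replicate 5 was the lowest of the 9 arrays, as for Itga2b and Itgb3. The difference was 0.15, and it was -0.11 without WT replicate 5. Ilk, the scaffold that links β chains to parvin, and Pxn, the paxillin gene, differed by 0.02 and 0.042, with intervals from -0.17 to 0.21 and from -0.11 to 0.19.

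KO replicate 1 was at least 0.5 below the median of the other KO arrays in 9 of the 29 genes (31.0%), against 13.6% of all genes above background. These were Fermt3, Itgal, Ptk2b, Itga2b, Itga5, Itga4, Tln1, Selplg and Vcl, and Cd44 was the 1 gene at least 0.5 above. WT replicate 5 was at least 0.5 below the median of the other WT arrays in 5 of the 29 (17.2%), against 11.8% of all genes above background. These were Itga2b, Vcl, Itgb3, Fermt3 and Itga5, and Itgax was the 1 gene at least 0.5 above. Without both arrays the differences of the 29 genes ran from -0.25 to 0.46, and 0 of 39 passed. Then 2 had an unadjusted p under 0.05 in limma, Ilk and Itga2b, against 3.78% of all genes. The part of array quality or of cell composition in these values was not tested.

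**Figure D4:**
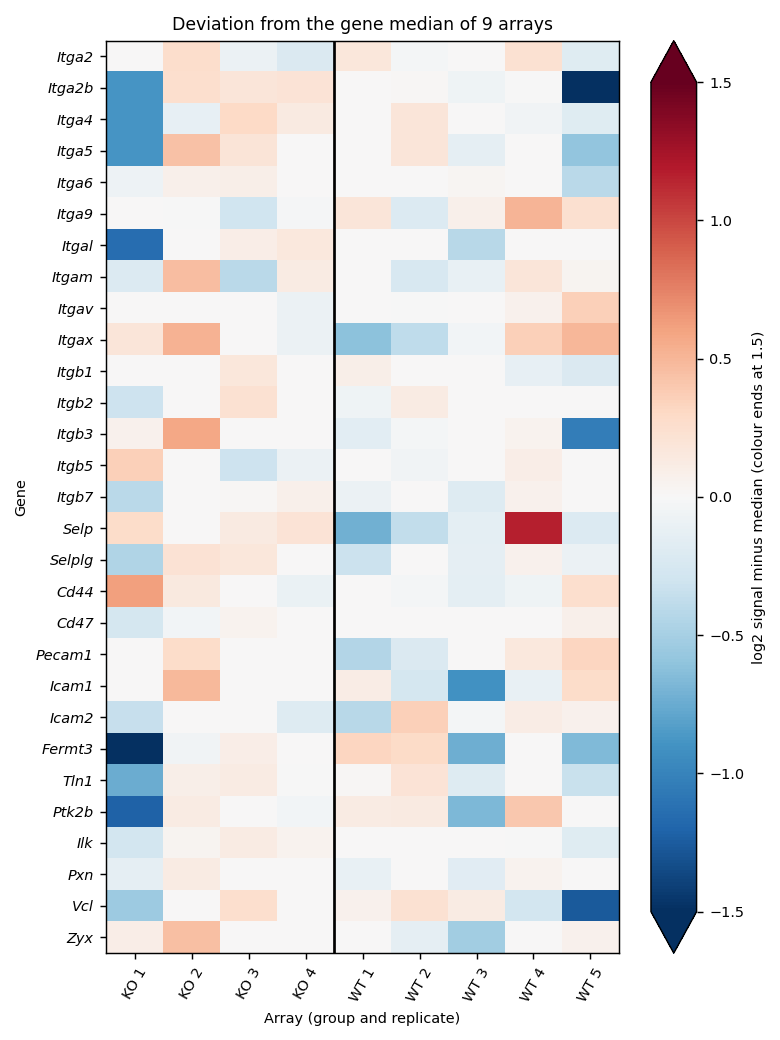
Log2 signal of the 29 genes above background in each array minus the gene's median over the 9 arrays (colour, blue below and red above), with KO arrays left of the line and WT arrays right. The blue cells gather in KO replicate 1, as in Fermt3 and Itgal, and in WT replicate 5, as in Itga2b and Vcl.

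**Figure D5:**
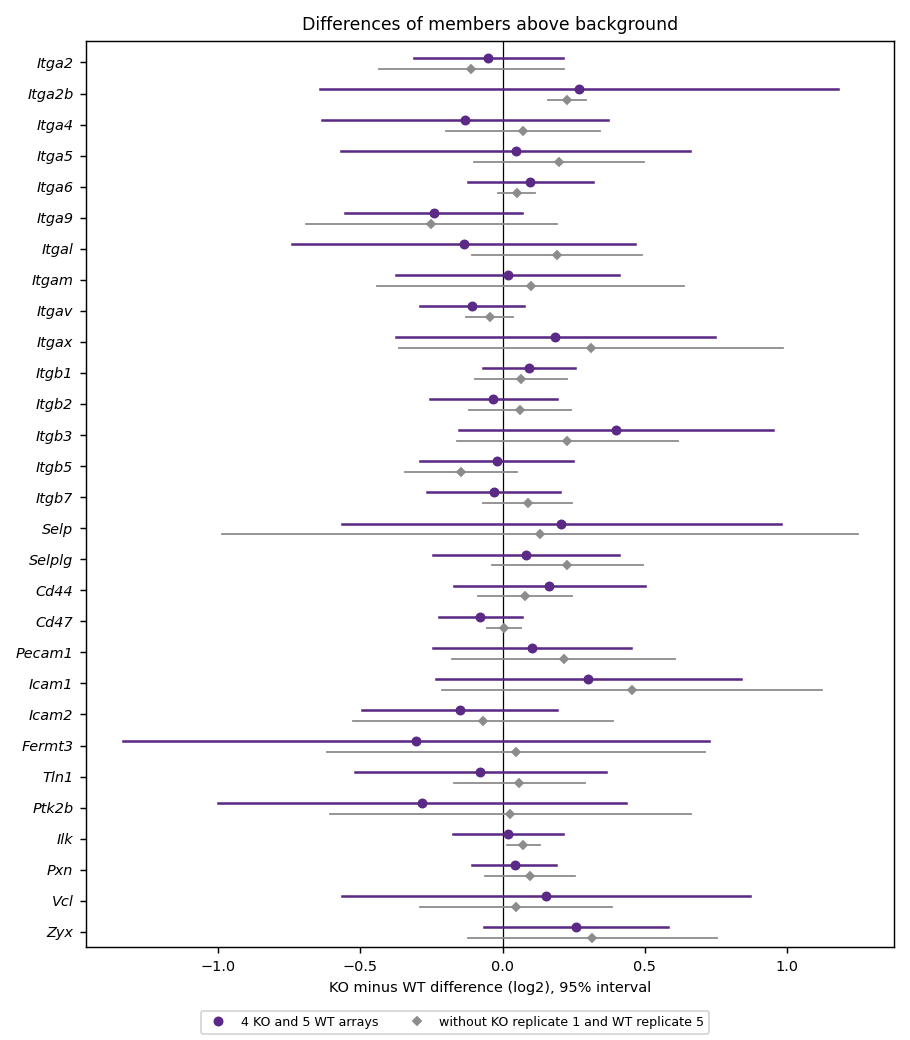
KO minus WT difference in log2 signal with its interval at the 95% level for the 29 genes above background, from all arrays (purple circles) and without KO replicate 1 and WT replicate 5 (grey diamonds). All purple intervals include 0, and those of Fermt3 and Itga2b are the widest. Without the 2 arrays the intervals of Itga2b and Ilk lie above 0. For both genes these arrays held the lowest value of each group, so the grey intervals leave out part of the spread between mice.

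Other genes of the pathway were counted in the same way. Of 45 measured integrin activators and focal adhesion adaptors, such as the RAP1, parvin and tensin genes, 33 lay above background in all arrays. Limma called 0 of the 45 in either direction and gave 0 of them an unadjusted p under 0.05, against 5.01% of all genes. Their median difference was 0.01. The genes of the other talin, Tln2, and of the kindlins Fermt1 and Fermt2 lay above background in no array. Of 27 measured further adhesion receptors 0 were called and 1 had an unadjusted p under 0.05, the tetraspanin gene Cd82, with a difference of 0.15 (interval 0.005 to 0.30) and a limma adjusted p of 0.786.

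Of 18 measured ligands of integrins and adhesion receptors 0 were called, and 1 had an unadjusted p under 0.05. This was Tgfb1, whose latent form is bound by αV integrins. It had 13.36, 13.64, 13.75 and 13.53 in KO arrays, against 13.43, 13.27, 13.27, 13.25 and 13.02 in WT arrays. All KO arrays but replicate 1 lay above every WT array. The difference was 0.32 (SE 0.099, interval 0.096 to 0.55), at a limma adjusted p of 0.786. The integrins best known for activating it, αVβ6 and αVβ8, had beta chains that lay above background in no array.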

How the data were processed

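The deposited table holds 1 value per probeset and array, used as log2 signals that the authors summarised and normalized. Partek 6.6 is named in the submitters' processing notes, and for log base, background correction and normalization the labels and header give nothing. Values run from 1.84 to 19.45, a range that fits log2, and every fold rests on that reading. Of 65956 target probesets 30604 carried exactly 1 symbol in the platform annotation, and the brightest by mean over all arrays stood for each of 30142 genes. Equal values recur: 12 of the 39 genes (30.8%), 4 of them above background, held 1 value in at least 5 arrays, against 25.8% of all genes, which makes their spread small.

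Differences, KO minus WT, came from limma 3.58.1 (R 4.3.3; lmFit, eBayes without trend, no covariate, Benjamini-Hochberg over all genes, threshold 0.05). The fit was tested on simulated data as a check of the code, and its power for differences as small as those of the set is not reported here. The labels call the replicates biological, which was read as separate mice, and they name no batch. The genes, marker lists and pathway lists were chosen with earlier results of these data known, and no list was tested as a set. All 39 genes, Abi1 and, per pathway list, up to 3 genes per direction with an unadjusted p under 0.05 are named, and a few further genes were named after their values were seen. Alternatives were other normalizations, filters, variance models, a replicate block and leaving out arrays.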

Additional observations from a re-analysis of the deposited data

Results flagged for a closer look

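In 60 groups of values (29 genes above background and Abi1, in KO and in WT), 19 single arrays stood far from the rest of their group by Dixon's criterion, where chance flags about 1 in 20 groups and where equal values within a group raise the ratio tested. KO replicate 1 gave 6 of them, all low: Fermt3 (11.95), Itga2b (10.75), Itgal (9.00), Itgb7 (7.70), Ptk2b (11.11) and Tln1 (11.04). WT replicate 5 gave 6, low for Itga2b (10.04), Itgb3 (6.39), Itga6 (9.77) and Ilk (10.97) and high for Cd47 (15.80) and Itgav (7.93). KO replicate 2 was high for Icam1 (9.09), Itgb3 (8.01) and Pecam1 (10.39). KO replicate 3 was low for Itga9 (6.18) and high for Itgb1 (10.68), KO replicate 4 was low for Itgav (7.48), and WT replicate 3 was low for Itgal (9.72).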

How the results depend on the processing

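The count of genes of the set called stayed at 0 under all 17 alternatives, and the smallest adjusted p of the 29 genes above background under any of them was 0.665. Not all of these were separate checks. Each gene of the set had a single probeset, so taking the mean of probesets left its difference as it was. The replicate block gave the same differences as leaving out WT replicate 5. An unadjusted p under 0.05 was reached by Itga9 with quantile normalization and without WT replicate 2, by Selp without WT replicate 4, and by Ilk and Itga2b without KO replicate 1 and WT replicate 5. Over all genes the count was 1 throughout, except 2 with array weights. The median difference of the set was -0.026 with quantile normalization and -0.024 with arrays centred on their median, where the median of all genes was -0.008 and -0.014. It was 0.049 without KO replicate 1 and WT replicate 5, and 0.012 to 0.077 when each array was left out in turn. Of the 29 differences 12 kept their direction throughout, and 17 turned under at least 1 setting, none of them called. Turned values were -0.079 for Selplg with quantile normalization. With centred arrays they were -0.027 for Ilk, -0.002 for Itga5, -0.028 for Itgam and -0.005 for Pxn. With array weights they were 0.094 for Itga4, 0.146 for Itgal, 0.059 for Itgb2, 0.078 for Itgb7 and 0.044 for Tln1. Without KO replicate 1 and WT replicate 5 they were 0.004 for Cd47, 0.047 for Fermt3, 0.071 for Itga4, 0.192 for Itgal, 0.062 for Itgb2, 0.088 for Itgb7, 0.027 for Ptk2b and 0.059 for Tln1. Leaving out single arrays gave ranges of -0.491 to 0.173 for Fermt3, -0.28 to 0.113 for Itga4, -0.263 to 0.171 for Itgal, -0.115 to 0.065 for Itgb2, -0.083 to 0.077 for Itgb7, -0.45 to 0.027 for Ptk2b and -0.163 to 0.127 for Tln1. They were -0.122 to 0.318 for Itga5, -0.137 to 0.153 for Itgam, -0.025 to 0.108 for Ilk, -0.143 to 0.08 for Itgb5, -0.141 to 0.019 for Itga2, -0.05 to 0.543 for Itga2b and -0.108 to 0.307 for Vcl. The cause was not tested.

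The labels name no pairing of mice by replicate number, and so few correlations cannot settle whether there was one. Deviations of same-numbered arrays correlated at -0.177 to 0.265. KO replicates 2 and 4 correlated best with the WT replicates of their own number, whereas KO replicates 1 and 3 did so with WT replicates 5 and 2. With the replicate number as a block, 0 genes of the set and 1 of all genes were called, and Ilk (-0.015), Itga2b (-0.05), Itga5 (-0.075) and Vcl (-0.108) turned, as WT replicate 5 has no partner and drops out. Pair counts ran from 12 to 14 under the alternatives. The genes below background give bounds only.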
